A study of Arabidopsis thaliana with 88 samples.

Results

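The photosystem and antenna genes of the nucleus were followed as a group of 37 Arabidopsis genes, given by their locus identifiers, out of 33681 genes in the deposited tables. They comprise 4 genes of the photosystem I antenna (LHCA1 to LHCA4), 6 genes of the major photosystem II antenna (LHCB1.1, LHCB1.2, LHCB1.3, LHCB2.1, LHCB2.2 and LHCB3), 4 of the minor antenna (LHCB4.1, LHCB4.2, LHCB5 and LHCB6), 12 photosystem I subunits, 5 subunits of the oxygen evolving complex and 6 other photosystem II subunits. All 37 passed the filter on low counts, as did 20347 genes in all, so the filter removed no member.

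The study set neo-tetraploid (4x) against diploid (2x) plants of 5 genotypes by 3′ end RNA sequencing. The mutants were sos3-2, which lacks a calcium sensor of the salt response, esb1-1, which alters the barrier around the root vasculature, rhd6-3/rsl1-1, which lacks root hairs, and chx25-3, a mutant of a cation/proton exchanger. The labels name the last mutant chx25-3 whereas the study's text names it chx23-4, so which exchanger is affected is unclear, and every value given for chx25-3 carries this doubt. The Col-0 wild type (WT) was their reference. All plants grew without added salt. Shoots and roots were taken after 5 weeks on peat in short days, with a single plant per library, and roots also after 2 weeks on agar with sucrose, with several plants pooled per library. The 4x mutants came from diploids treated with colchicine, and the WT 4x line from earlier work. Of 86 libraries with a group, 29 were from soil shoots (14 of 4x and 15 of 2x plants), 29 from soil roots (14 of 4x and 15 of 2x) and 28 from plate roots (15 of 4x and 13 of 2x). A group of 1 genotype and ploidy held 3 libraries, except that chx25-3 4x in soil shoots and soil roots, and sos3-2 2x and rhd6-3/rsl1-1 2x in plate roots, held 2. Replicates are numbered as biological in the titles, and by the study's methods all came from a single experiment, so p-values measure the spread between plants or pools of that experiment.

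Each photosystem joins pigment proteins encoded in the chloroplast with subunits and antenna proteins encoded in the nucleus. LHCA proteins pass light energy to photosystem I and LHCB proteins to photosystem II, where the oxygen evolving complex splits water. Nuclear photosystem genes are among the most active genes of green leaves, respond to light and the circadian clock, and are nearly silent in roots kept in the dark.

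Transcripts of the 37 genes made up between 8.97 and 19.6% of the assigned reads in soil shoot libraries (median 14.3%), between 0.0120 and 0.0803% in soil roots (median 0.0248%) and between 0.0702 and 0.121% in plate roots (median 0.0902%). Depth lay between 4698913 and 8635531 assigned reads per library in soil shoots, 5850010 and 10435932 in soil roots and 3292996 and 10246421 in plate roots. In shoots, reads of chloroplast genes took another 3.70 to 16.8%. Of 7 leaf markers, 6 were higher in every shoot library than in any root library, with YAB1, a leaf polarity regulator, at 0 in all plate roots. The exception was CER1, a wax synthesis enzyme, which ran from 0.1979 through 5.654 to 20.24 CPM in shoots and from 4.274 through 9.93 to 17.88 CPM in plate roots. Of 7 root markers, 4 were lower in every shoot library than in any root library, with SMB, a root cap regulator, at 0 in all shoots. The others were COBL9 and EXPA7, which mark root hairs and were near 0 in some root libraries, and SKOR, a channel that loads potassium into the xylem, which stood at up to 1.93 CPM in shoots and as low as 0.612 CPM in plate roots. Because these are bulk samples, fewer green cells and less RNA per green cell cannot be told apart.

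Levels are given as CPM, counts scaled to the TMM-adjusted size of each library. A member was called where the Benjamini-Hochberg adjusted p of edgeR's quasi-likelihood test, adjusted over all 20347 genes, was under 0.05 and the log2 fold change at least 0.5 in either direction. Per transcript length, soil shoot medians ran from 53.06 TPM, transcripts scaled per length and library, for PSBY to 2936 TPM for LHCB1.3, with PSBR at 2932 TPM, PSAG at 2695 TPM and a median over the 37 genes of 861.7 TPM. Within groups of 1 genotype and ploidy, the standard deviation of the log2 level in shoots was smallest for PSBR (0.195) and largest for PSBO2 (0.823).

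Of the members called on ploidy or library number, 4 promoters are shown and others, such as PSBO2 and PSAO, are not. Those shown are the 250 bases before the annotated start, read 5′ to 3′ on the gene's strand from the TAIR10.1 genome of RefSeq. They belong to PSBS (AT1G44575, chr1:16869971-16870220, plus strand), PSBY (AT1G67740, chr1:25395250-25395499, minus strand), LHCB1.2 (AT1G29910, chr1:10473503-10473752, minus strand) and PSBQ2 (AT4G05180, chr4:2673244-2673493, minus strand). Capitals mark a G-box (CACGTG), an I-box (GATAAG), the CCAATC motif tied to GLK factors or AATATCT, on either strand. AATATCT is the core of the evening element, which is longer and was not searched for.
PSBS: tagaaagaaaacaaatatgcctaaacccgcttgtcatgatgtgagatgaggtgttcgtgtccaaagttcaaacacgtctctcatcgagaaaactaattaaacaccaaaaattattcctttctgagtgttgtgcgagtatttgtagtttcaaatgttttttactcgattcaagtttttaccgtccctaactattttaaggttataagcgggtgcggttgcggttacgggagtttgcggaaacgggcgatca
PSBY: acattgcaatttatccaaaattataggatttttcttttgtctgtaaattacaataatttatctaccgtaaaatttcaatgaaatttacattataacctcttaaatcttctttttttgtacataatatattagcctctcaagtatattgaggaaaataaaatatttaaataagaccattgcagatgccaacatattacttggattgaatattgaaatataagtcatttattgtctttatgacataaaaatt
LHCB1.2: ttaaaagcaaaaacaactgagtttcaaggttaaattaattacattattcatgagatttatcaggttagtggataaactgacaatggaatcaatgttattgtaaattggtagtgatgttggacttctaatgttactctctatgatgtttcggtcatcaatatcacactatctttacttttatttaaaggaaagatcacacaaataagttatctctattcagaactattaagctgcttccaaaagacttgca
PSBQ2: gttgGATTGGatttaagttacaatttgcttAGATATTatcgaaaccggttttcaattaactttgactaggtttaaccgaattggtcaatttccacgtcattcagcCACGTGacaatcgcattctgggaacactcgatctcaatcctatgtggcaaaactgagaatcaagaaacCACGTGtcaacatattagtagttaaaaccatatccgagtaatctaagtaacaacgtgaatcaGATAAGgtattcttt
The windows of PSBS, PSBY and LHCB1.2 held none of these letters, whereas that of PSBQ2 held a pair of G-boxes and 1 match to each of the other motifs. A G-box stood in 8 of the 37 promoters (21.6%) and in 7.26% of the 19913 promoters of tested genes, an I-box in 9 (24.3%) and in 12.4%, CCAATC in 9 (24.3%) and in 10.5%, and AATATCT in 4 (10.8%) and in 10.2%. A match is a description of the letters only.

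In WT soil shoots, PSBO2 and PSBY were lower in 4x than in 2x plants. PSBO2 encodes the minor of a pair of proteins that shield the manganese cluster of photosystem II, and PSBY a small membrane subunit near its cytochrome. In the edgeR fit without a replicate block they were the only calls among the 37 (5.41%), where 0.742% of all genes tested were called (0.511% higher and 0.231% lower). DESeq2 also called PSBS (-0.83, DESeq2 adjusted p = 0.0483). All 37 genes had negative log2 fold changes, with a median of -0.40, against a median of -0.03 over all genes. An unadjusted p under 0.05 was found for 6 of the 37 members and for 12.1% of all genes.

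PSBO2 (AT3G50820) stood at 277.7, 128.5 and 158.4 CPM in WT 4x shoots, against 1003, 750.4 and 1767 CPM in WT 2x shoots. The WT 4x and 2x libraries did not overlap. In the mutants, PSBO2 ran from 73.59 through a median of 469.5 to 960.5 CPM in 4x shoots and from 193.1 through 450.1 to 933.2 CPM in 2x shoots, so that 2 of the WT 2x plants stood above every mutant. The WT log2 fold change was -2.64 (SE 0.58, edgeR adjusted p = 0.0299).

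PSBY (AT1G67740) stood at 385.9, 222.9 and 215.3 CPM in WT 4x shoots, against 1003, 512.1 and 1611 CPM in WT 2x shoots. Again the ploidies did not overlap, and the same pair of WT 2x plants (replicates 1 and 3) was highest for both genes. Mutant shoots held 240.9 to 597.7 CPM in 4x plants (median 342.2) and 247.5 to 607.6 CPM in 2x plants (median 385.4). The WT log2 fold change was -1.92 (SE 0.35, edgeR adjusted p = 0.00999). The ploidy difference in each mutant minus that in WT was 1.80 to 3.04 (log2) for PSBO2 and 1.37 to 2.16 for PSBY, and 0 of 37 members passed as interactions in any mutant with edgeR or DESeq2. In each mutant these were the 2 genes with an unadjusted p under 0.05 (edgeR, 0.000298 to 0.0289, all with an adjusted p of 1). Of all genes, 0.00491% passed as an interaction in chx25-3, 0.00983% in rhd6-3/rsl1-1, 0% in esb1-1 and 0.00491% in sos3-2. In WT shoots libraries of the same replicate number deviated together. With the number as a block, shared by the soil shoot libraries of every genotype, 3 members were called in WT. They were PSBY (-1.89, edgeR adjusted p = 0.00305), PSBO2 (-2.54, 0.00775) and PSBS (-0.89, 0.0319). The numbers did not pair the libraries of every genotype, so these calls do not rest on the WT pairs alone. Without the block, both WT calls were lost without WT 2x replicate 3 (PSBO2 -2.22, adjusted p = 0.157; PSBY -1.46, adjusted p = 0.0985), without WT 4x replicate 2 (-2.43, 0.134; -1.79, 0.0639) and without WT 4x replicate 3 (-2.53, 0.117; -1.78, 0.0579).

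**Figure D1:**
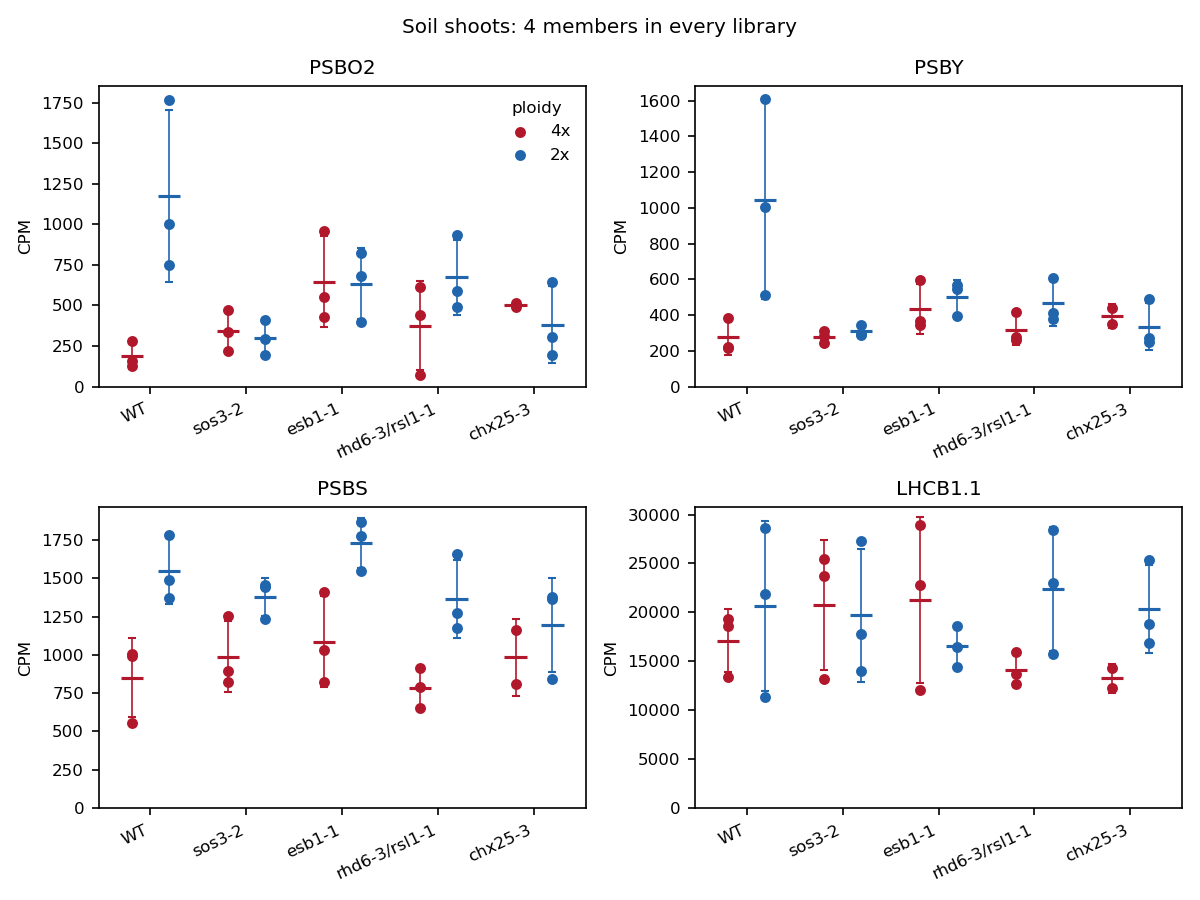
Level (CPM) of PSBO2, PSBY, PSBS and LHCB1.1 in each soil shoot library, by genotype with 4x left of 2x; points are libraries and bars the mean and standard deviation. WT 2x plants stand highest for PSBO2 (1767 CPM) and PSBY (1611 CPM), while PSBS is lower in 4x than in 2x plants without overlap in WT, esb1-1 and rhd6-3/rsl1-1.

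Averaged over the 5 genotypes, PSBS and PSBY were lower in 4x than in 2x shoots. PSBS is the protein that senses lumen acidity and switches on the harmless release of excess light energy as heat. These were 2 of 37 members (5.41%), where 9.53% of all genes were called, 5.95% higher and 3.59% lower, so the members' share was close to the background. All 37 log2 fold changes were negative, between -0.62 and -0.07 with a median of -0.23, against a median of -0.04 over all genes, and 13 of 37 members, against 25% of all genes, had an unadjusted p under 0.05.

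PSBS (AT1G44575) was at 993.3, 1006 and 552.5 CPM in WT 4x shoots, against 1784, 1370 and 1488 CPM in WT 2x. It was at 893.2, 1251 and 820.5 CPM in sos3-2 4x, against 1454, 1440 and 1237 CPM in sos3-2 2x. In esb1-1 it was at 819.8, 1410 and 1030 CPM in 4x, against 1549, 1867 and 1776 CPM in 2x. The 4x libraries lay below every 2x library in WT and esb1-1, whereas 1 sos3-2 4x plant exceeded the lowest 2x plant. In rhd6-3/rsl1-1 PSBS was at 914.5, 652 and 786.7 CPM in 4x, against 1175, 1656 and 1270 CPM in 2x, again without overlap. In chx25-3 it was at 1160 and 806.3 CPM in 4x, against 843.8, 1377 and 1364 CPM in 2x, with overlap. The common log2 fold change was -0.62 (SE 0.12, edgeR adjusted p = 0.00128), and it stayed between -0.68 and -0.57 when any 1 library was left out.

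PSBY ran from 215.3 through a median of 325.2 to 597.7 CPM in 4x shoots and from 247.5 through 413.9 to 1611 CPM in 2x shoots. The ranges overlap, with 3 of the 15 2x libraries above every 4x library and 3 of the 14 4x libraries below every 2x library. Its common log2 fold change was -0.52 (SE 0.16, edgeR adjusted p = 0.0284). The call was lost under DESeq2, where the fold was under the threshold (-0.50, adjusted p = 0.0176), and without any 1 of 10 libraries, with values between -0.50 and -0.43 and adjusted p between 0.0450 and 0.0837: WT 4x replicates 2 and 3, WT 2x 3, sos3-2 4x 3, esb1-1 4x 1 and 2, rhd6-3/rsl1-1 4x 3 and 2x 2, and chx25-3 4x 3 and 2x 3.

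Another 5 members had an adjusted p under 0.05 below the fold threshold. They were PSAN (-0.38, adjusted p = 0.0169), a lumenal photosystem I subunit near the plastocyanin site, PSAK (-0.42, 0.0324), which lies beside the antenna, PSBQ1 (-0.35, 0.0333) of the oxygen evolving complex, and PSAH1 (-0.34, 0.0448) and PSAH2 (-0.35, 0.0466), which form part of the photosystem I side where mobile antenna docks. By role, the median common log2 fold change was -0.17 for the photosystem I antenna, -0.24 for the major antenna, -0.22 for the minor antenna, -0.26 for photosystem I subunits, -0.23 for the oxygen evolving complex and -0.28 for other photosystem II subunits. The members' summed level was 135300 CPM at its lowest, 207200 at the median and 335800 at its highest in 4x shoots, against 179700, 258800 and 303300 CPM in 2x shoots. The lowest and the highest library were both of 4x plants.

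**Figure D2:**
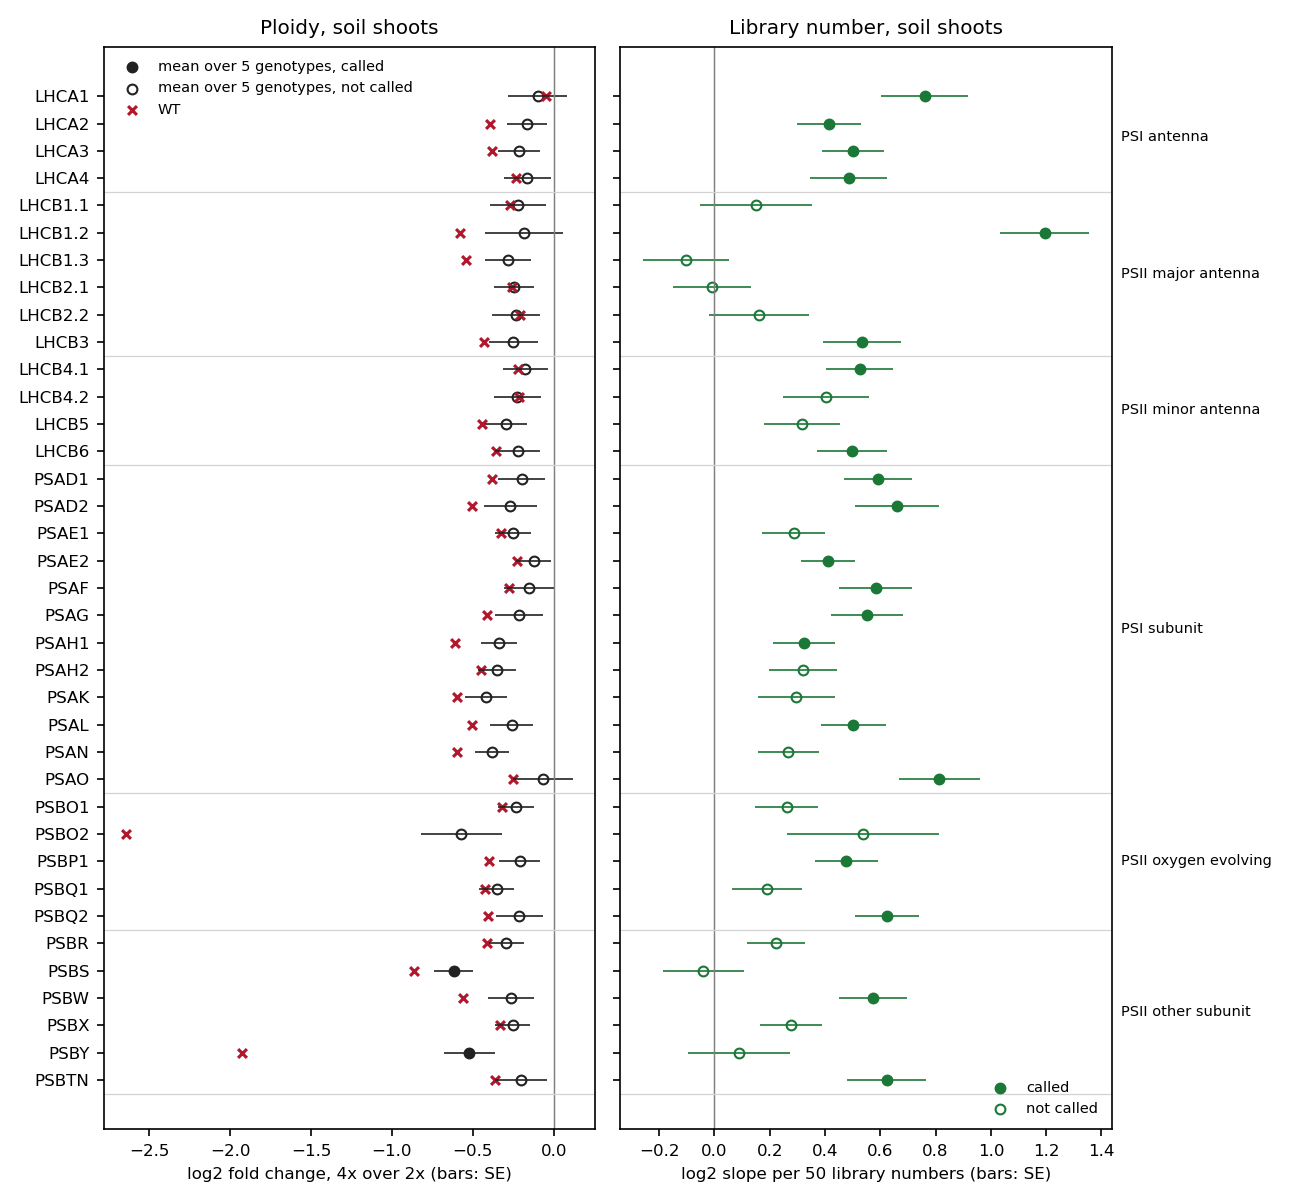
Left, log2 fold change of 4x over 2x soil shoots for each of the 37 members, as the mean over 5 genotypes with its standard error (points) and in WT alone (crosses); right, log2 slope per 50 library numbers with its standard error. All points on the left lie below 0, between -0.62 and -0.07, and 34 of 37 slopes lie above 0.

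In the fits without further terms, no member was called within a single mutant. Between 4x and 2x shoots, 0 of 37 passed in sos3-2 (0.00491% of all genes did), esb1-1 (0%), rhd6-3/rsl1-1 (2.7%, with 1.75% higher and 0.949% lower) and chx25-3 (0%), with median log2 fold changes of -0.23, -0.06, -0.32 and -0.24. An unadjusted p under 0.05 (edgeR) was found for 0, 1, 4 and 0 members, against 5.27, 8.94, 17.7 and 5.01% of all genes. Ploidy was not balanced against library number, the running number in the library names. In rhd6-3/rsl1-1 and chx25-3 the 4x shoots all came after library 53, whereas replicate 1 of their 2x shoots came before it. In esb1-1 the 4x shoots were libraries 35, 62 and 96, against 41, 53 and 70 in 2x. In WT they were 33, 60 and 94 in 4x, against 51, 82 and 98 in 2x. In sos3-2 they were 45, 78 and 84 in 4x, against 39, 58 and 90 in 2x. For the 2.7% of all genes called in rhd6-3/rsl1-1, the calls in a fit with library number as a covariate are not given here. In rhd6-3/rsl1-1, DESeq2 called PSBS (-0.78), and a fit with library number as a covariate called LHCB1.2 (-1.05), PSAH2 (-0.79), PSAK (-0.99) and PSAL (-0.77). In sos3-2 the members spanned -0.48 (PSBS) to 0.20 (PSBO2), and in chx25-3 -0.62 (LHCB1.1) to 0.40 (PSBO2). In rhd6-3/rsl1-1 they spanned -0.84 (PSBO2) to 0.03 (PSAO), with PSBS at -0.80 (edgeR adjusted p = 0.0951).

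In esb1-1 the members spanned -0.67 (PSBS) to 0.37 (LHCB1.1), and 14 of 37 were positive. LHCB1.1 (AT1G29920), a gene of the trimeric antenna, was at 12100, 22760 and 28960 CPM in esb1-1 4x shoots, against 14430, 18650 and 16470 CPM in esb1-1 2x shoots. The 4x plants held both the lowest and the highest value. The median over the members moved between -0.34 and 0.23 as 1 esb1-1 library at a time was left out.

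In chx25-3 LHCB1.1 was at 14330 and 12240 CPM in 4x shoots, against 18770, 25390 and 16900 CPM in 2x shoots, without overlap. PSBO2 was at 491 and 516.8 CPM in chx25-3 4x, against 193.1, 305.2 and 646.2 CPM in chx25-3 2x, inside the 2x range. In rhd6-3/rsl1-1, PSBO2 was at 611.3, 73.59 and 438.7 CPM in 4x shoots, against 493, 933.2 and 590.7 CPM in 2x shoots. In sos3-2 its level was 219.1, 469.5 and 337.5 CPM in 4x shoots, against 290.7, 193.6 and 407.1 CPM in 2x shoots. PSBO2 therefore had fold changes of both signs among the mutants, with overlapping ploidies in each, and none passed the test.

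Other genes of photosynthesis were counted in the same contrast over the 5 genotypes. Of 14 carbon fixation genes, 4 were lower in 4x shoots (median log2 fold change -0.41), led by RBCS2B, a Rubisco small subunit (-0.74, edgeR adjusted p = 0.00276) and SBPASE of the Calvin cycle (-0.59, 0.00391). Of 7 other antenna family genes, LHCB4.3 (-0.65) and LHCA6 (-0.79) were lower, and of 12 chlorophyll synthesis genes GUN4 (-0.51), which activates magnesium chelatase. Of 7 regulators, GLK2, a transcription factor of chloroplast development, was lower (-0.65, adjusted p = 0.00128). None was higher in these lists, and 0 of 8 electron transport genes, 0 of 9 clock genes and 0 of 2 light stress genes were called with edgeR, although 6, 0 and 1 of them had an unadjusted p under 0.05. The share of all genes called in this contrast is the one given above with PSBS and PSBY. Single calls in lists this short cannot be told apart from that share. In WT alone, 0 genes of any of these lists were called.

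Some leaf markers outside the photosystems were lower in the same contrast. The sum of 7 such markers ran from 1391 through a median of 2308 to 3385 CPM in 4x shoots and from 1887 through 3563 to 4928 CPM in 2x shoots. Of the 7, TGG1 (-0.57) and TGG2 (-1.08), myrosinases of guard and myrosin cells, CER1 (-1.49), an enzyme of leaf wax synthesis, and YAB1 (-0.70) were lower. MYB60, YAB3 and CER6 were not called, and CER1 is the marker that did not set shoots apart from plate roots. Of 7 root markers, which summed to 6.907 to 47.14 CPM in 4x and 10.77 to 45.47 CPM in 2x shoots, only PHO1, a phosphate exporter, was called (-0.65). For both marker lists, the share of all genes called is again the one given above with PSBS and PSBY. The part of these cell types in the members' values was not tested.

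Between mutants and WT, over both ploidies, 0 of 37 members were called in soil shoots of any mutant. Of all genes, 0.0147% were called in chx25-3, 0.0442% in rhd6-3/rsl1-1, 0.108% in esb1-1 and 0.0197% in sos3-2. In the same order, the medians over the members were -0.05, 0.02, 0.06 and 0.02 (log2), and 1, 0, 0 and 1 members had an unadjusted p under 0.05 with edgeR. DESeq2 also called 0. PSBY had the lowest value in each, from -0.87 in sos3-2 (unadjusted p = 0.00154, adjusted p = 1) to -0.19 in esb1-1, and the 4 contrasts share the WT plants with high PSBY. The highest member was LHCB3 in chx25-3 (0.11), PSAG in rhd6-3/rsl1-1 (0.23), PSBO2 in esb1-1 (0.44) and LHCB6 in sos3-2 (0.11).

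Several subunits are encoded by a pair of near copies, and the balance between copies was compared for 8 pairs or families within soil shoots. A permutation of ploidy within genotype (100000 draws, two-sided) gave no pair with an adjusted p under 0.05. The smallest p was for PSAE1 over PSAE2, stromal subunits that help dock ferredoxin, whose log2 ratio averaged 2.40 ± 0.17 in 14 4x shoots and 2.53 ± 0.14 in 15 2x shoots (SD; permutation test, difference -0.13, p = 0.0167, adjusted p = 0.134), with 4 of 5 genotypes negative. For PSAD1 over PSAD2, the main ferredoxin docking subunit, the difference was 0.087 (permutation p = 0.134, adjusted p = 0.413), positive in 5 of 5 genotypes. PSBO1 over PSBO2 differed by 0.38 (permutation p = 0.314). Reads of near copies were shared out by the quantifier. Counts of LHCB1.1, LHCB1.2 and LHCB1.3 were whole numbers (to within 0.001 of a read) in 0 of 29 shoot libraries, so the balance within LHCB1 is uncertain. Those of PSBS were whole in 26, PSBY in 28 and PSBO2 in 22. Counts of PSAO, which has no copy among the members, were also whole in 0 of 29. Which transcripts it shares reads with was not tested.

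Within groups, most members were higher in shoot libraries with a higher library number. This is the running number in the names of the deposited libraries. What it stands for is not given in the sources used here, and the sample index starts anew after library 53. Library number and replicate number run together. In soil shoots, libraries up to 53 were all replicate 1 except esb1-1 2x replicate 2. The only later replicate 1 was rhd6-3/rsl1-1 4x (library 92), so the numbers can hardly be told apart. In a fit with genotype and ploidy groups and library number, 20 of 37 members (54.1%) rose with the number and 0 fell, where 31.4% of all genes were called (15.3% rising and 16.1% falling). The median slope was 0.41 log2 units per 50 library numbers, against 0.00053 over all genes, and 34 of 37 slopes were positive.

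LHCB1.2 (AT1G29910) ran from 7361 through a median of 11840 to 19000 CPM in the 20 shoot libraries after the index restart (58 to 130), against 3220, 5475 and 8552 CPM in the 9 before it (33 to 53). Its slope was the largest of the 37, at 1.19 (SE 0.16, edgeR adjusted p = 3.3e-06). PSAO (AT1G08380), which sits where mobile antenna meets photosystem I, ran from 7959 through 10200 to 15300 CPM after the restart, against 4114, 6091 and 9022 CPM before it (slope 0.81, SE 0.15, adjusted p = 0.000139). For both genes only the upper end of the earlier libraries reached the range of the later ones. Counts of both were fractional in every shoot library. Reads of LHCB1.2 were shared out among its near copies, so the size of its slope is uncertain. Of these copies, LHCB1.1 and LHCB1.3 were not called, whereas LHCB1.4 and LHCB1.5 rose.

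PSBQ2 of the oxygen evolving complex ran from 2447 through 3362 to 4642 CPM after the restart, against 1562, 2591 and 2813 CPM before it (slope 0.62, SE 0.12, adjusted p = 0.000162). LHCA1 ran from 5033 through 7112 to 11080 CPM after it, against 2683, 4761 and 7405 CPM before it (slope 0.76, SE 0.16, adjusted p = 0.00052). These ranges overlap in part. Among members without a call, LHCB2.1 ran from 6027 through 9446 to 12930 CPM after the restart and from 7111 through 8885 to 12570 CPM before it (slope -0.01), and PSBS from 552.5 through 1244 to 1776 CPM after it and from 819.8 through 1175 to 1867 CPM before it (slope -0.04). LHCB1.1 (0.15), LHCB1.3 (-0.10), PSBY (0.09) and PSBO2 (0.54) were not called either.

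**Figure D3:**
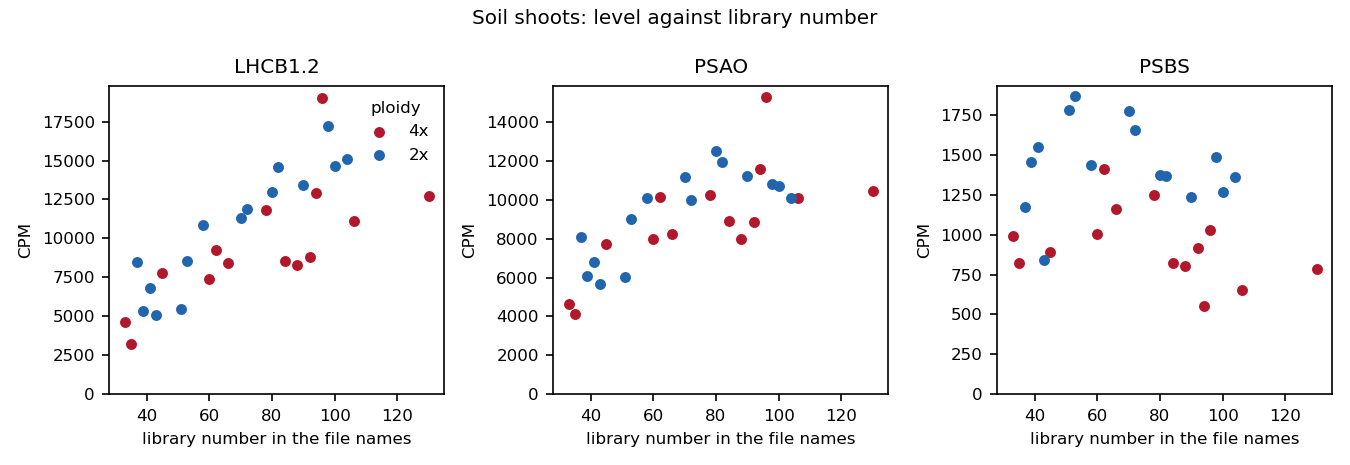
Level (CPM) of LHCB1.2, PSAO and PSBS in each soil shoot library against its library number, red for 4x and blue for 2x plants. LHCB1.2 and PSAO are higher in libraries 58 to 130 than in most of libraries 33 to 53, and PSBS spans a like range in both.

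Clock and light response genes had slopes of other sizes and signs. Of 9 clock genes, 6 rose and 3 fell with library number: CCA1, a dawn gene, ran from 2.09 through 19.95 to 95.85 CPM after the restart, against 137.6, 253.8 and 378.2 CPM before it, with no overlap (slope -4.02). ELF4, an evening gene, had a slope of 6.32 and LHY, a partner of CCA1, of -5.88. ELIP1, an early light induced protein, ran from 3.96 through 20.16 to 86.24 CPM after it, against 57.89, 119.6 and 349.3 CPM before it (slope -3.38). Of 7 regulators, 4 fell, led by SIG5, a chloroplast sigma factor (-3.69), HY5 (-3.49) and CGA1 (-3.21).

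Of 12 chlorophyll synthesis genes 3 rose, with PORB at 3.63, and 3 fell, with CHLH at -0.66. Of 14 carbon fixation genes 1 rose and 7 fell, and of 8 electron transport genes 3 rose and 0 fell. Among other antenna genes LHCB1.4 (1.46) and LHCB1.5 (0.84) rose and LHCB7 (-1.02) fell. For these lists and the clock and regulator genes, the shares of all genes are those given above with the members' slopes. With the index series as a block, edgeR called 0 of 37 member slopes: LHCB1.2 kept a slope of 0.84 (adjusted p = 0.0536) and the members' median was 0.21, so the slope within an index series did not pass. A G-box stood in 6 of the 20 promoters of members that rose and in 2 of the other 17, with any of the motifs in 11 and in 7.

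Roots held a small fraction of the shoot level. All 37 members were higher in soil shoots than in soil roots (100%), where 65.7% of all genes were called (28.1% higher). Relative to the mean shoot level, soil roots stood between 0.0045% for PSAO and 0.345% for LHCB4.1, a minor antenna protein, with a median of 0.0675%, and plate roots between 0.0207% for LHCB1.2 and 1.05% for PSBR, with a median of 0.273%. Without PSAO and LHCB1.2, which had no reads in many root libraries, the log2 fold change of shoots over soil roots ran from 8.18 (LHCB4.1) to 11.23 (PSBS) with a median of 10.63. Counts of PSAO were above 0 in 6 of 29 soil root libraries, with 129 reads in all.

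**Figure D4:**
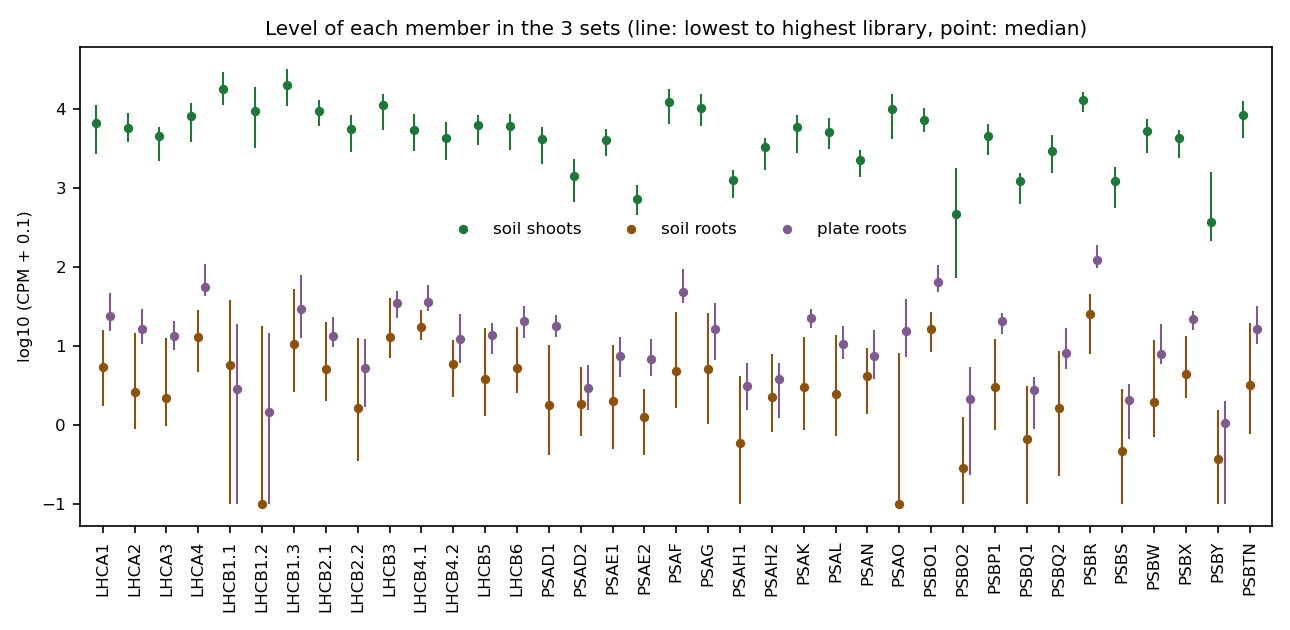
Level of each of the 37 members in soil shoots, soil roots and plate roots, as log10(CPM + 0.1); points are medians over libraries and lines run from the lowest to the highest library. Shoots lie above both kinds of roots for every member, and 35 of 37 members were called lower in soil roots than in plate roots.

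Soil roots and plate roots differed in most members. Of 37, 36 were called (97.3%), where 47.6% of all genes were (24.5% higher and 23.1% lower in soil roots), 35 lower and 1 higher in soil roots. PSBR (AT1G79040), a small subunit that helps hold the oxygen evolving complex, ran from 7.798 through 25.63 to 44.92 CPM in soil roots and from 97.44 through 124.1 to 189.4 CPM in plate roots, with no overlap (log2 fold change -2.37). PSBO1, the main manganese shielding protein, ran from 8.383 through 16.39 to 27.14 CPM in soil roots and from 47.69 through 64.28 to 106.1 CPM in plate roots, also without overlap (-2.11). PSAE2 likewise did not overlap, with 0.3249 to 2.741 CPM in soil roots (median 1.174) and 4.109 to 12.09 CPM in plate roots (median 6.756; -2.51).

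LHCB1.1 was the exception. It ran from 0 through 5.678 to 38.38 CPM in soil roots and from 0 through 2.747 to 18.89 CPM in plate roots, with full overlap (log2 fold change 1.06, SE 0.32, edgeR adjusted p = 0.00235). Its reads were shared out among near copies, so this single-gene value is uncertain. Summed, LHCB1.1, LHCB1.2 and LHCB1.3 averaged 25.19 CPM (SD 23.88) in soil roots and 41.75 CPM (SD 21.4) in plate roots. LHCB1.2 was not called, with reads in 12 of 29 soil root and 20 of 28 plate root libraries. Antenna genes took 52.5% of the members' CPM in soil roots and 39.6% in plate roots, against 53.2% in soil shoots (medians over libraries). Plant age, medium, day length and pooling differ between the kinds of roots together and cannot be told apart.

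In soil roots, 4x and 2x plants showed no called member in WT (0 of 37, 0.0934% of all genes called), in any mutant (0.0147% of all genes in chx25-3, 0.0246% in rhd6-3/rsl1-1, 0.0737% in esb1-1 and 0.0246% in sos3-2), or over the 5 genotypes (1.56%). In WT the members' median was -0.16 (log2), and without PSAO and LHCB1.2 they spanned -1.05 (PSBO2) to 0.68 (PSBS). Over the 5 genotypes 34 of 37 values were positive with a median of 0.54, where 49% of all genes were positive with a median of -0.0034. An unadjusted p under 0.05 (edgeR) was found for 7 of 37 members and for 16% of all genes over the genotypes, so the members' share was near the background. Within genotypes it was found for 0 members in WT, chx25-3 and rhd6-3/rsl1-1, for 10 in esb1-1 (11.8% of all genes) and for 4 in sos3-2 (10.1%). DESeq2 called 1 member over the genotypes, LHCB3, and 0 within a genotype. The smallest adjusted p was that of LHCB3 (0.60, edgeR adjusted p = 0.0738).

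LHCB3 (AT5G54270), a subunit of the antenna trimers, was at 11.48, 11.03 and 14.43 CPM in WT 4x soil roots, against 9.088, 21.99 and 8.798 CPM in WT 2x. It was at 27.81, 40.2 and 12.29 CPM in sos3-2 4x, against 10.63, 12.75 and 21.89 CPM in sos3-2 2x, and at 21.37, 26.24 and 10.49 CPM in esb1-1 4x, against 7.269, 7.945 and 12.9 CPM in esb1-1 2x. The ploidies overlapped in all 3 of these genotypes. In rhd6-3/rsl1-1 it was at 19.85, 21.32 and 27.42 CPM in 4x, against 7.042, 17.62 and 18.39 CPM in 2x, and in chx25-3 at 14.02 and 17.54 CPM in 4x, against 12.2, 10.2 and 9.855 CPM in 2x, both without overlap. LHCB3 passed the threshold without the WT 4x and WT 2x library with the most TGG1 (log2 fold change 0.69, adjusted p = 0.0377), an alternative chosen after seeing the data.

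The members' summed level varied widely between single soil roots. It ran from 91.31 (esb1-1 4x replicate 3) through a median of 206.6 to 609.8 CPM (sos3-2 4x replicate 2) in 4x roots and from 107.6 through 142.9 to 346.4 CPM in 2x roots. The sum of 7 leaf markers was 5.249 to 33.19 CPM in 4x soil roots (median 8.465) and 4.544 to 26.67 CPM in 2x soil roots (median 8.591). TGG1 was highest in WT 4x replicate 3 (10.27 CPM, members' sum 192.3 CPM) and WT 2x replicate 2 (9.83 CPM, members' sum 310.7 CPM), and was 3.015 CPM in the library with the highest members' sum. Mean TGG1 and TGG2 in soil roots were 0.155% and 0.322% of their shoot levels. The part of leaf material in these values was not tested.

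**Figure D5:**
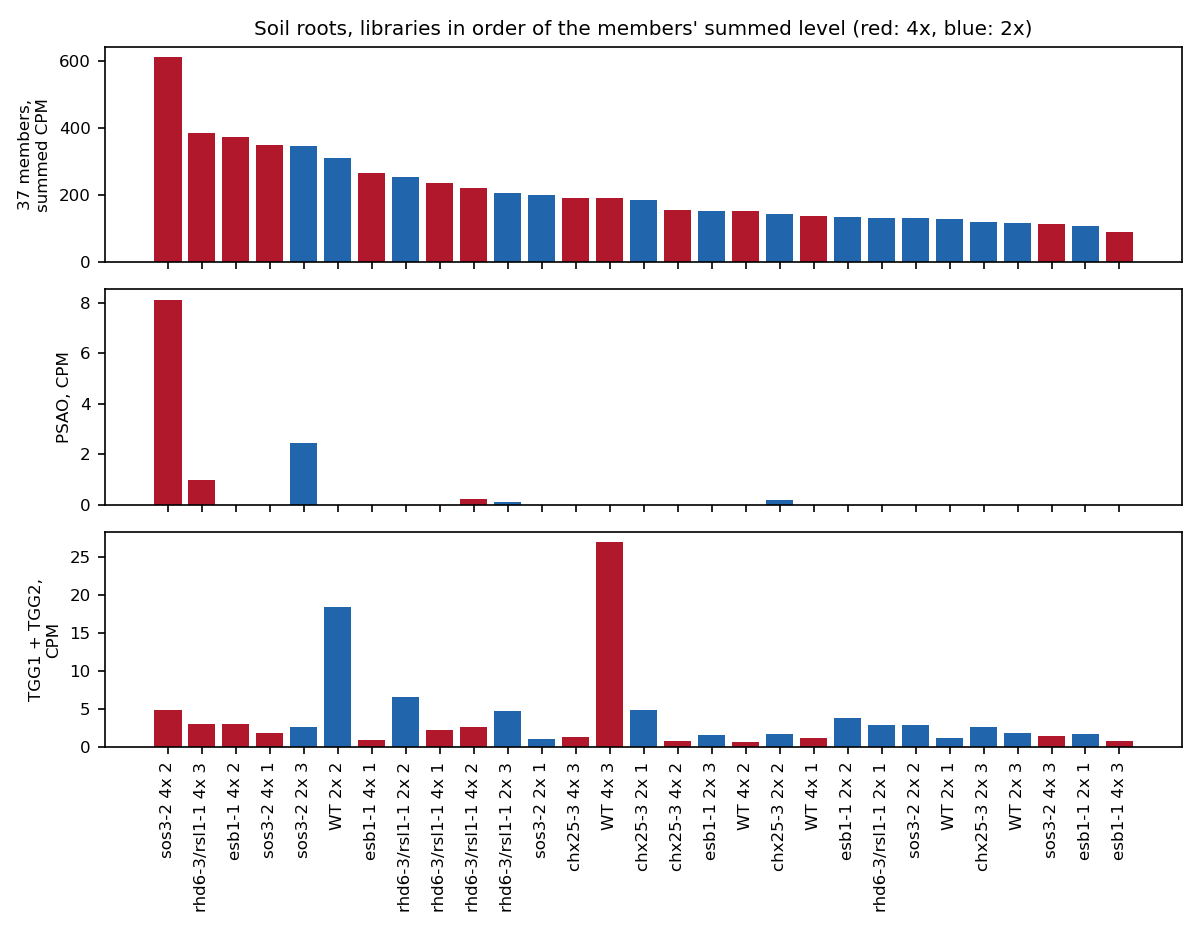
Summed level of the 37 members, level of PSAO and summed level of TGG1 and TGG2 (all CPM) in each soil root library, in order of the members' sum, red for 4x and blue for 2x plants. The sum runs from 91.31 to 609.8 CPM, and the libraries with the most TGG1 and TGG2 do not include the one with the highest sum.

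Among soil roots of mutants and WT, 0 of 37 members were called in sos3-2 (0.0491% of all genes called), esb1-1 (1.53%), rhd6-3/rsl1-1 (0.914%) or chx25-3 (0.0246%). In sos3-2 all 37 values were positive, with a median of 0.84 and, without PSAO and LHCB1.2, a range from 0.21 (LHCB4.1) to 1.61 (PSBO2). Of all genes 49% were positive, with a median of -0.0028. Unadjusted p was under 0.05 for 14 members and for 6.26% of all genes with edgeR, against 0 in chx25-3, 1 in rhd6-3/rsl1-1 and 0 in esb1-1, and the smallest adjusted p was 0.713. DESeq2 called 0 in all 4 mutants. In rhd6-3/rsl1-1 all 37 were also positive, as were 45.7% of all genes (members' median 0.55, smallest adjusted p 0.599), while the medians were 0.03 in esb1-1 and -0.20 in chx25-3. These contrasts share the WT libraries.

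With library number, 4 members were called in soil roots (10.8%), where 11.5% of all genes were (5.68% rising and 5.85% falling). LHCA4 (AT3G47470), a photosystem I antenna protein, ran from 8.04 through 14.19 to 28.6 CPM in the 21 libraries after the index restart, against 4.627, 6.149 and 14.53 CPM in the 8 before it (slope 1.07, SE 0.21, edgeR adjusted p = 0.00127). PSBR ran from 7.798 through 23.01 to 44.86 CPM after it, against 25.63, 30.91 and 44.92 CPM before it (slope -0.91, SE 0.15, adjusted p = 0.000238), and PSBO1 from 8.383 through 14.85 to 27.14 CPM, against 13.68, 20.55 and 23.67 CPM (slope -0.56, SE 0.12, adjusted p = 0.00416). All 3 pairs of ranges overlap. LHCA4 thus rose while PSBR and PSBO1 fell. With the index series as a block only PSBR passed.

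The other call was PSAO (adjusted p = 0.0461), whose 129 soil root reads lay in 6 libraries: 89 in sos3-2 4x replicate 2, 27 in sos3-2 2x 3, 8 in rhd6-3/rsl1-1 4x 3, 2 in rhd6-3/rsl1-1 4x 2, 2 in chx25-3 2x 2 and 1 in rhd6-3/rsl1-1 2x 3. All of these are after the restart. The call was lost without any 1 of WT 4x 1, WT 2x 1, sos3-2 4x 1 and 2x 1, 2 or 3, esb1-1 4x 1 or 3 and 2x 1 or 3, or any of the 6 rhd6-3/rsl1-1 libraries (adjusted p 0.0505 to 0.207), and its fitted slope depends on libraries at 0.

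In plate roots, 0 of 37 members were called between 4x and 2x in WT (0.0344% of all genes called), sos3-2 (0%), esb1-1 (0.29%), rhd6-3/rsl1-1 (0.0541%), chx25-3 (2.86%) or over the 5 genotypes (0.55%). Unadjusted p was under 0.05 for 0, 1, 4, 2 and 5 members within genotypes and for 8 of 37 over them, against 14% of all genes (edgeR), and DESeq2 called 0. Over the genotypes the median was -0.05 (log2), the values spanned -0.97 (LHCB1.2) to 0.73 (LHCB1.1), and the smallest adjusted p was that of PSBR (-0.30, edgeR adjusted p = 0.0699). The members' sum was 585.5 to 984.2 CPM in 4x plate roots (median 724.2) and 612.7 to 1083 CPM in 2x plate roots (median 748.4).

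Against WT, 1 of 37 members (2.7%) was called in plate roots of esb1-1, where 7.07% of all genes were called (4.92% lower). LHCB2.2 (AT2G05070), an antenna trimer gene, was at 4.056, 2.77 and 3.85 CPM in esb1-1 4x and 1.924, 1.575 and 1.615 CPM in esb1-1 2x plate roots, against 6.005, 7.503 and 4.401 CPM in WT 4x and 4.629, 6.231 and 3.506 CPM in WT 2x. At each ploidy esb1-1 lay below every WT library. The log2 fold change over both ploidies was -1.11 (SE 0.29, edgeR adjusted p = 0.0164), and in a fit of all 86 libraries together the call was lost (adjusted p = 0.169). Counts of LHCB2.2 were fractional, by the same tolerance, in every library, since its reads are shared with near copies. No member was called in sos3-2 (1.03% of all genes called, members' median 0.12), rhd6-3/rsl1-1 (9.93%, median 0.22) or chx25-3 (5.64%, median 0.23) with edgeR, where 2, 6 and 9 members, and 16.3, 26.1 and 23.5% of all genes, had an unadjusted p under 0.05. In esb1-1 DESeq2 called LHCB1.2 as well (adjusted p = 0.0195), which was at 0 in 5 of 6 esb1-1 libraries, so that its fitted fold is no bound. DESeq2 also called LHCA2 in rhd6-3/rsl1-1 (0.54) and LHCA2 (0.53) and PSAE2 (0.57) in chx25-3.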

How the data were processed

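QuantSeq 3′ mRNA libraries were sequenced by the authors as 75-base single-end reads on an Illumina NextSeq 500 and quantified with Salmon. The Salmon version, transcript set and genome build are not given in the sources used here. The deposited files hold, per transcript, expected counts and TPM (scaled per transcript length and library by the authors); a deposited table of TPM per gene was reproduced by summing transcripts and gives the TPM levels printed. Expected counts of 81620 transcripts were summed per locus, giving 33681 genes, and rounded. Fractional counts mark reads that Salmon shared between similar transcripts. Because 3′ reads do not grow with transcript length, TPM understates long transcripts.

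Genes reaching 2 CPM in 6 or more of the 86 grouped libraries (20347) were scaled by TMM and tested with edgeR 4.0.16 (limma 3.58.1, R 4.3.3) by quasi-likelihood, with 1 fit per kind of tissue, a mean per genotype and ploidy, and Benjamini-Hochberg adjustment over all 20347 genes. TMM and the threshold (adjusted p under 0.05, absolute log2 fold change of at least 0.5) follow the study. The filter uses its limits but differs: the study filtered transcripts, over a larger number of samples, on counts rescaled from TPM, and here genes were filtered on rounded summed counts. The test is edgeR's in place of the study's. Comparisons between tissues used 1 fit of all 86 libraries. Slopes are per 50 library numbers and need the adjusted p only. Paralog ratios used counts with a pseudocount of 0.5. Alternatives were relative log expression, scaling without the members and organelle genes, no filter, DESeq2 1.42.0, replicate number as a block, library number or index series as terms, 1 fit of all libraries, and leaving out each library. The fits were tested on simulated counts of the 20347 genes with 200 changed by 1.5 on the log2 scale: 40.5% of them were recovered for the WT ploidy contrast in shoots, 96.5% for the contrast over genotypes and 83% for the slope in shoots.

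The members and the other gene lists were chosen with earlier results of these data known. Every member may be named; values per library are given for up to 4 called members of smallest p in each direction or, in most comparisons without a call, for members at the ends of the range, and of the other lists up to 3 called genes with the smallest p were named, as were all called tissue markers. Another 2 libraries without a group stayed out of all comparisons because their labels disagree. No pair of replicates differed by less than sampling noise: the lowest chi-square per gene was 3.351 over 82 pairs. Replicate numbers were taken to pair libraries where every pair of 3 deviated together (correlation over 0.1), which held for 4x against 2x in WT soil shoots (0.27 to 0.45), esb1-1 soil shoots (0.23 to 0.46) and esb1-1 soil roots (0.18 to 0.34); the pairing is a hint from the data, since the labels give only the number. ATPC1 was not analysed here.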

Additional observations from a re-analysis of the deposited data

How the results depend on the processing

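Of 2003 alternative values of 58 results, 1910 kept their direction, side of the threshold and size, 58 no longer passed, 12 newly passed, 23 moved by more than the set limit and 0 reversed. Called members in WT shoots between ploidies numbered 2, with 0 to 2 when a library was left out, 3 with DESeq2 and 3 with a replicate block, which added PSBS (-0.83 and -0.89, log2). In rhd6-3/rsl1-1 shoots 0 became 1 with DESeq2, 1 with the replicate block (PSBS -0.77) and 4 with library number as a covariate (LHCB1.2 -1.05, PSAH2 -0.79, PSAK -0.99 and PSAL -0.77). Over all genotypes 2 became 1 with DESeq2 and 1 to 2 on leaving out a library. In soil roots over all genotypes 0 became 1 (LHCB3) with DESeq2, with library number as a covariate and without the 2 libraries with most TGG1 (WT 4x 3 and WT 2x 2, chosen after seeing the data), and 0 to 1 on leaving out a library, with 1 without sos3-2 4x 3, sos3-2 2x 3, WT 2x 2 or esb1-1 4x 3. Rising or falling slopes in shoots numbered 20, 27 with DESeq2, 12 in a fit of all 86 libraries, 0 with the index series as a block, 0 with the replicate block, where the members' median was 0.65, and 19 to 24 on leaving out a library. In soil roots 4 slopes became 1 with the index series as a block, 0 with the replicate block and 3 to 5 on leaving out a library. Index series and replicate number run together with library number in both tissues. The slopes can therefore hardly be told apart from these blocks. Soil against plate roots gave 35 to 36 calls on leaving out a library. Ploidy within mutant roots gave 0, and 1 without chx25-3 2x 3 in plate roots. Mutants against WT gave 0 in soil roots, and 1 (PSAO in sos3-2) in a fit of all libraries. In plate roots they gave 1, 3 with relative log expression, 5 with DESeq2, 0 in a fit of all libraries and 1 to 3 on leaving out a library, with 2 or 3 without WT 2x 1, 2 or 3, WT 4x 2, esb1-1 4x 1, sos3-2 2x 1, rhd6-3/rsl1-1 4x 3 or chx25-3 2x 3. Where no value above shows why a call changed, the cause was not tested.

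Replicate numbers paired the libraries of WT and esb1-1 soil shoots and esb1-1 soil roots, where the block changed no call other than adding PSBS in WT. The block was shared by all genotypes in a fit, so it was not a pairing within WT or esb1-1. Over all genotypes the numbers did not pair libraries, so all block values rest on a shared number only. Same-numbered libraries correlated at 0.052 to 0.46 in their deviations in soil shoots (10 of 14 pairs over 0.1, 12 best with their own number). The correlations were -0.21 to 0.34 in soil roots (9 of 14, with 11 best) and -0.56 to 0.52 in plate roots (4 of 13, with 5 best). The chx25-3 4x soil groups rest on 2 libraries each. Counts of 0 in roots leave the folds of PSAO and LHCB1.2 without a bound.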

Other observations

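A pair of 4x libraries from soil plants had titles and genotype labels that disagree and so belong to no group. In the shoot library the 37 photosystem and antenna genes took 8.65% of 7277400 assigned reads, and in the root library 0.0215% of 7669490 assigned reads.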
